A study of Mus musculus with 6 samples.

Results

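The 38 genes described here encode proteins that make ribosomes or work in the nucleolus, together with 4 enzymes of polyamine and nucleotide synthesis that are commonly counted with them. They were taken by name from a fixed list, chosen with earlier results of these data known. They make up 38 of the 27179 genes in the deposited count table. All 38 passed the filter on low counts and are among the 13207 genes tested. The members fall into 7 role groups: 3 RNA polymerase I subunits, 4 box C/D and 3 box H/ACA small nucleolar ribonucleoprotein (snoRNP) proteins, 8 factors of the small (40S) and 11 of the large (60S) ribosomal subunit, 5 nucleolar proteins with several roles, and the 4 enzymes.

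The libraries were made from leukaemia cells of C57BL/6 mice that were sorted from spleen as GFP-positive viable cells. Both groups carried the same alleles, A/E9a (a splice form of the AML1-ETO fusion oncogene), NRASG12D (an activated NRAS) and Ifnar1-/- (loss of a chain of the receptor for type I interferons), so no group with an intact receptor was compared here. The treatment was 3 days of panobinostat, an inhibitor of histone deacetylases, or of vehicle, with 3 libraries in each group. The comparison asks which transcripts change with the drug in leukaemia cells labelled as lacking Ifnar1. The labels do not say whether each library is from a mouse of its own, whether the leukaemia was 1 clone, or which promoter drives the oncogenes. Spread between these libraries may thus be technical in part, and the p-values measure that spread alone.

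Ribosome production starts in the nucleolus, where RNA polymerase I transcribes the ribosomal RNA precursor. Box C/D snoRNPs methylate riboses of that precursor and box H/ACA snoRNPs convert chosen uridines to pseudouridine, while assembly factors fold, cut and package it into the small and large subunits. The MYC transcription factor, which binds DNA with its partner MAX at E-boxes, is a well-known activator of these genes, and leukaemia cells that divide fast depend on a high output of ribosomes.

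Library totals lay between 31989622 and 35962605 counts, and each member had between 1069 and 39655 counts in each library. Vehicle library 1 stood apart: over all genes tested its log2 levels correlated at 0.942 and 0.941 with the other vehicle libraries and at 0.954 to 0.984 with the panobinostat libraries. Direction counts and medians of the members and of each role group are therefore also given without that library. They are also given without both libraries numbered 1, a fit chosen after seeing the data. Panobinostat library 1 did not stand apart in the same way, with correlations of 0.971 and 0.963 with the other panobinostat libraries. Adjusted p-values from the fit without both libraries are thus given as description only. In the markers of other cells, summed levels in CPM (counts scaled to a common library size) for granulocytes and monocytes were 9.19 to 12.1 in vehicle and lower in each panobinostat library, at 6.20 to 8.33. The B cell sum was 50.8 to 119 in vehicle and 9.42 to 60.9 in panobinostat, with groups that overlapped. The T cell sum was 10.4 to 13.6 in vehicle and was 2.31 and 5.93 in panobinostat libraries 1 and 2, with library 3 inside the vehicle range. The erythroid sum ran from 3188 to 23958, the megakaryocyte sum was 1089.6 in vehicle library 1 against 248 to 654 in the others, and the mast cell and basophil sum was 3862 in panobinostat library 1 against 1712 to 2346. No marker of any of these lists was at 0 in all libraries. The part of other cells in the members' values was not tested, and fewer cells of a type and less RNA per cell cannot be told apart in bulk samples.

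The promoters of the members are shown first because E-boxes there are the sites that MYC and MAX are known to bind. RefSeq windows on GRCm38.p6, from 250 bases before to 50 bases after a transcript start, were found for 32 members, and not for Fbl, Rrp12, Rrs1, Bop1, Npm1 and Srm. The E-box letters CACGTG, searched on both strands, were in the windows of 7 of the 32 members (21.9%), against 11.7% of the 9813 tested genes with a window and 8.09% of all 27025 windows. Among other genes of the same pathways, the wider lists described below, 26 of 141 with a window had a match (18.4%). The 7 members were Mybbp1a, Nme1, Nop2, Pes1, Tsr1, Utp20 and Wdr43, and Nme1 had a match in the windows of 2 starts. Each match is printed with its flanks and the E-box in capitals, and a window that ends near the match has a shorter flank.
Mybbp1a, after the start, plus strand, chr11:72441355-72441376: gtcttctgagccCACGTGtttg
Nme1, before 1 start, minus strand, chr11:93968273-93968302: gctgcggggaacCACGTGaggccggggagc
Nme1, before another start, minus strand, chr11:93968037-93968066: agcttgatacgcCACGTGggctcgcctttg
Nop2, before the start, plus strand, chr6:125131811-125131840: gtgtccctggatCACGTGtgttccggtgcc
Pes1, after the start, plus strand, chr11:3963965-3963994: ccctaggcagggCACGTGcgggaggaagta
Tsr1, after the start, plus strand, chr11:74898092-74898121: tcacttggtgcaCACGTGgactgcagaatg
Utp20, after the start, minus strand, chr10:88826765-88826789: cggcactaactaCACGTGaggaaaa
Wdr43, after the start, plus strand, chr17:71616220-71616249: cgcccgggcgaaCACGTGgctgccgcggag
Other motifs were searched in the same windows on both strands. The ETS core CCGGAAG was in 31.2% of member windows, in 41.1% of those of the wider lists and in 20.8% of those of tested genes. The GC box GGGCGGG was in 40.6%, 53.9% and 50.5% in that order, and CCAAT in 21.9%, 36.9% and 43.7%. These matches describe letters only, and binding of a factor was not measured.

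No member of the 38 passed the test between panobinostat and vehicle, although most were slightly higher with the drug. In the edgeR quasi-likelihood test with Benjamini-Hochberg adjustment, 0 members were called, with adjusted p between 0.998 and 1.0, and 0% of all 13207 tested genes were called. The members' differences were small and mostly in 1 direction: 34 of 38 had a higher fitted level in panobinostat and 4 a lower one (Polr1c, Nob1, Wdr74 and Brix1). Their log2 fold changes ran from -0.26 to 0.41 with a median of 0.14, beside a median of 0.00 over all genes tested, of which 50.2% were higher. The precision limits this result: the 95% intervals of 36 members include 0, and the widest bounds over all members were 0.563-fold and 1.86-fold. An unadjusted p under 0.05 was found for Wdr12 and Ncl, 2 of 38 members, where 2.28% of all tested genes had one. That count ran from 0, without panobinostat library 2 or 3, to 9, without panobinostat library 1, when 1 library was left out. For fits that left out libraries, the share of all genes with such a p is not given here. Counts of members by unadjusted p in those fits thus have no baseline. DESeq2 on the same counts called 0 members, and 0.0681% of all genes, and limma-voom called 0 members.

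In 7 members every panobinostat library lay above every vehicle library, where 3.79% of all tested genes did so. In 0 members did every panobinostat library lie below every vehicle library, where 3.63% of tested genes did. The 7 were Tsr1, Nop16, Bop1, Wdr12, Pes1, Ncl and Mybbp1a, and 4 of them are large subunit factors.

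**Figure D1:**
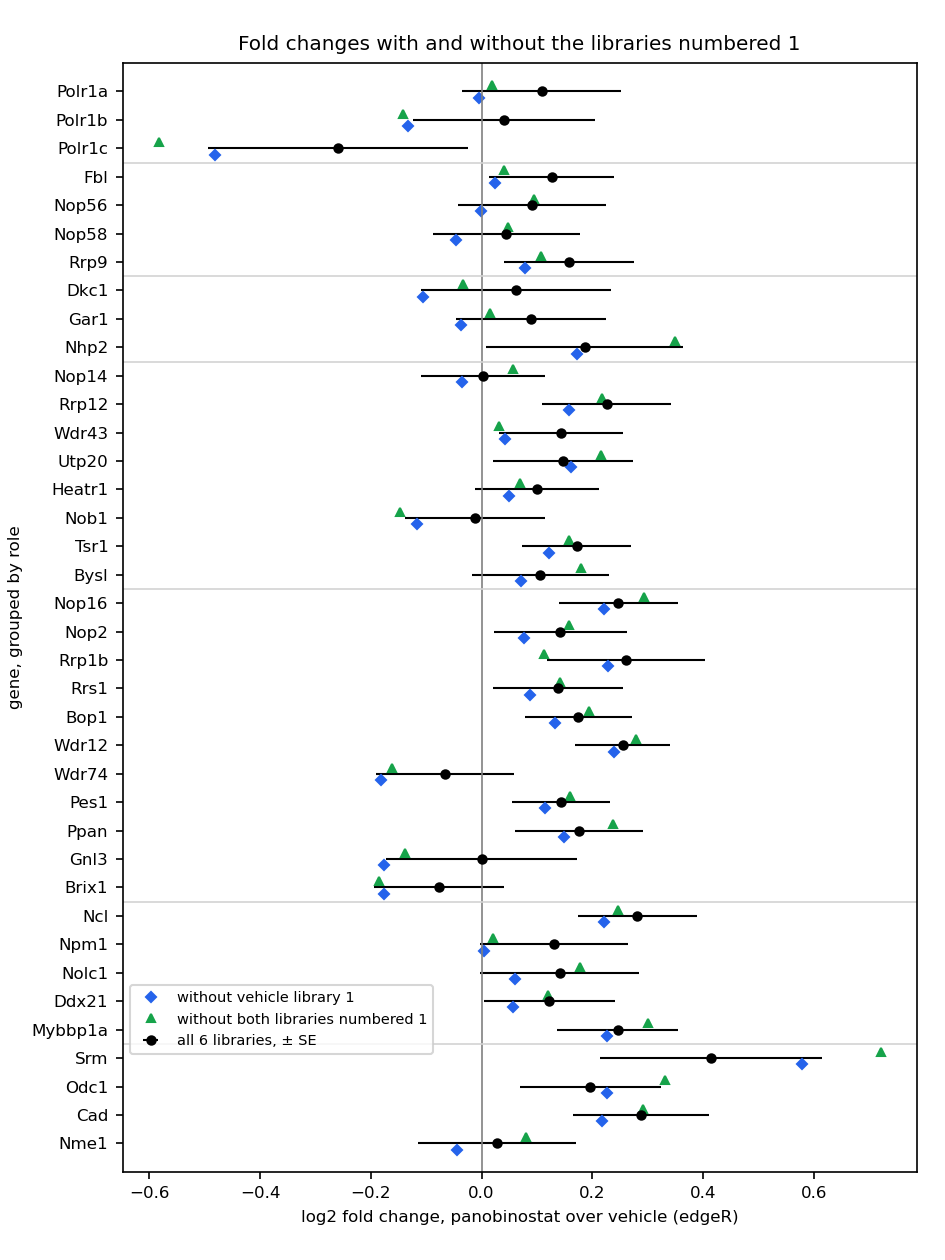
Log2 fold change of panobinostat over vehicle for each of the 38 genes, grouped by role; black points are the fit to all 6 libraries with bars of 1 standard error, blue diamonds the fit without vehicle library 1 and green triangles the fit without both libraries numbered 1. Most black points lie right of 0, between -0.26 (Polr1c) and 0.41 (Srm), and most blue diamonds lie nearer to 0 or left of it.

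The members' levels differed between the libraries of a group as well as between the groups. For each member, log2 CPM was set relative to its own mean over the 6 libraries. In library order from 1 to 3, the median over members was -0.18, -0.00 and 0.02 for vehicle, then -0.03, 0.14 and 0.11 for panobinostat. Vehicle library 1 was thus the low library and panobinostat libraries 2 and 3 the high ones, while panobinostat library 1 lay just below the other vehicle libraries. Vehicle library 1 held the lowest value of the 6 for 25 members and the highest for 0. For all genes tested, it was lowest for 25.4% and highest for 22.4%. Of the 6452 tested genes with a mean log2 CPM of at least 5, it was lowest for 2108 and highest for 1255. The median of those genes in vehicle library 1 was -0.05. Panobinostat library 2 held the highest value for 21 members, against 8.94% of all genes tested. Within panobinostat, library 1 was the lowest of the 3 for 32 members. Summed over the 38 genes, vehicle reached 6246, 6921 and 7176 CPM, while panobinostat reached 7012, 7959.5 and 7808 CPM, which is 0.618% to 0.787% of all counts.

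The proliferation markers, 10 genes such as Mki67 and Top2a, were also lowest in the libraries numbered 1. Summed, they reached 3443, 4616 and 4890 CPM for vehicle, while panobinostat libraries reached 3552, 4711 and 4241 CPM in the same order. The members too had their lowest median within each group in library 1. Mki67 itself was at 1727 ± 282 CPM in vehicle and 1715 ± 287 CPM in panobinostat (SD, n = 3). The part of proliferation in the members' levels was not tested.

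**Figure D2:**
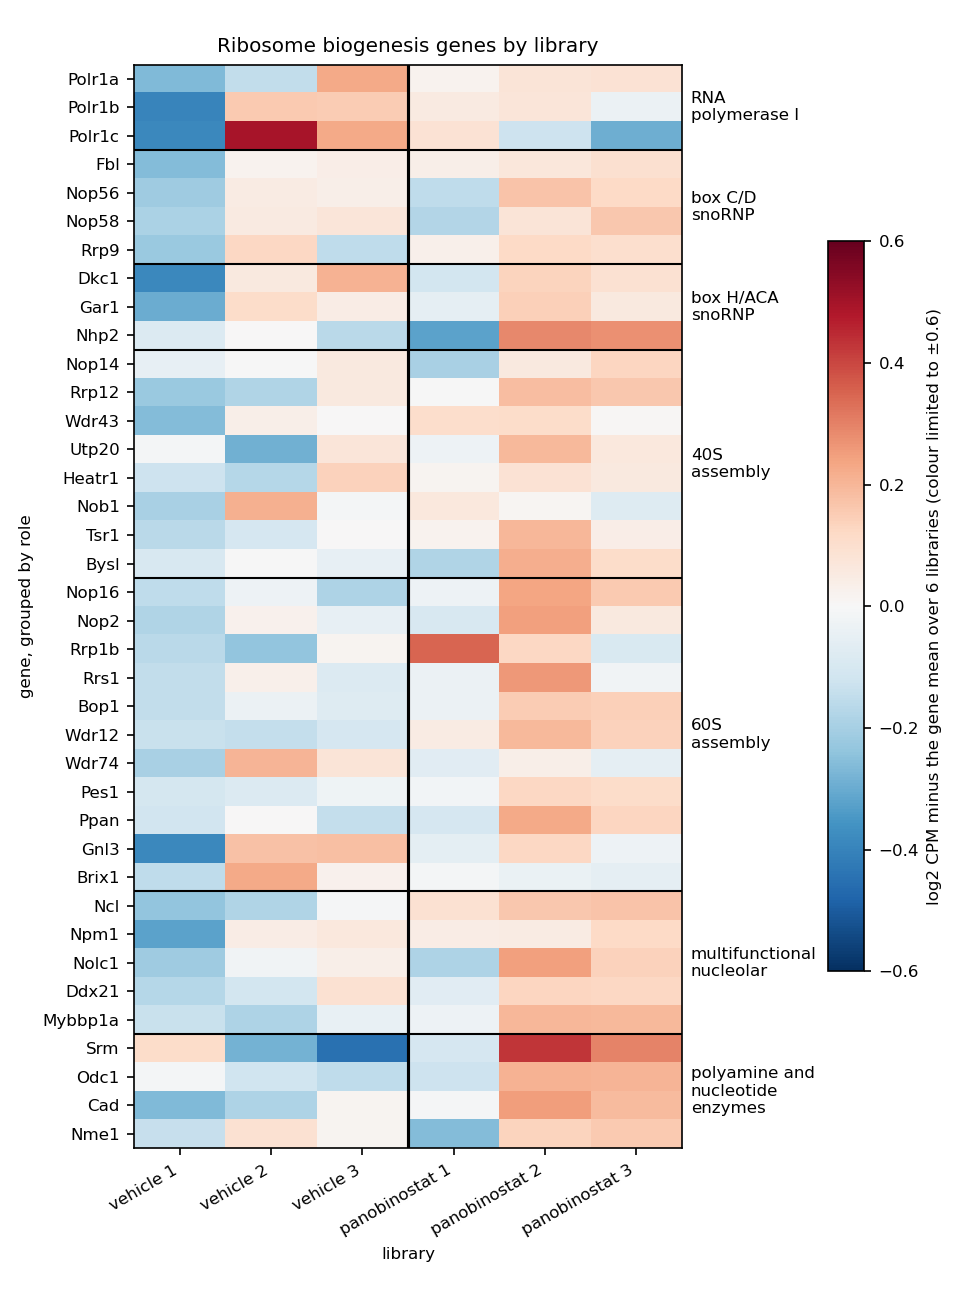
Level of each of the 38 genes (rows, grouped by role) in each of the 6 libraries (columns), as log2 CPM minus the gene's own mean over the libraries. Vehicle library 1 is low for most rows (median -0.18), and panobinostat libraries 2 and 3 are high (medians 0.14 and 0.11).

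Without vehicle library 1, the balance of directions was weaker. In that fit 25 members were higher and 13 lower, the median log2 fold change was 0.07, and 9 members went from higher to lower. Genes with a mean log2 CPM of at least 5 moved the same way. Of these 6452 genes, 3092 were higher with all libraries (median -0.01) and 2683 without vehicle library 1 (median -0.04). The edgeR test called 0 members, where 2% of 13369 genes were called higher and 0.419% lower. For 3 members the unadjusted p was under 0.05, a count with no share of all genes to set beside it. Without panobinostat library 2 the median was 0.08, with 31 members higher. Without both libraries numbered 1, 31 members were higher and 7 lower, with a median of 0.12, beside -0.04 over the same 6452 genes. That fit, chosen after seeing the data, called 4 members, Srm, Odc1 and Nhp2 as higher and Polr1c as lower. Of 13239 genes, it called 7.36% higher and 4.65% lower. An unadjusted p under 0.05 was found for 11 members in it, with no share of all genes to set beside that count. Over the fits that left out 1 library each, 25 members were higher in all 6 fits, Polr1c was lower in all 6, and 12 members had a direction that depended on the library left out.

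The RNA polymerase I subunits had no common direction. Polr1a encodes the largest subunit, which holds the catalytic centre with the product of Polr1b, and Polr1c encodes a subunit that RNA polymerases I and III share. Polr1a was at 91.5, 99.5 and 129 CPM in vehicle and at 112, 116 and 117 CPM in panobinostat, a log2 fold change of 0.11 (SE 0.14, edgeR adjusted p = 0.998). The panobinostat values of Polr1a lay inside the range of the vehicle values, and so did those of Polr1b, at 79.6, 117 and 117 CPM in vehicle and at 109, 111 and 102 CPM in panobinostat.

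Polr1c (Entrez gene 20016, chr17:46243920-46248045 on GRCm38.p6, as for all positions here, minus strand) had the lowest fold change of the members. It was at 41.3, 76.2 and 63.3 CPM in vehicle and at 57.4, 49.6 and 44.1 CPM in panobinostat. Vehicle library 1 was the lowest of the 6 and the other vehicle libraries the highest, so the vehicle spread enclosed all panobinostat values. The group levels were 60.3 ± 17.6 and 50.4 ± 6.66 CPM (SD, n = 3), a log2 fold change of -0.26 (SE 0.24, edgeR adjusted p = 0.998). Without vehicle library 1 its fold change was -0.48 on the log2 scale (edgeR adjusted p = 0.147), and without both libraries numbered 1 it was -0.58 (edgeR adjusted p = 0.0278). All 3 subunits were lower without vehicle library 1, with a median of -0.13 in place of 0.04, and the median was -0.14 without both libraries numbered 1.

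The 4 box C/D snoRNP genes were all slightly higher in panobinostat, with a median log2 fold change of 0.11, which was 0.01 without vehicle library 1 and 0.07 without both libraries numbered 1. Fbl encodes fibrillarin, the methyltransferase of the particle, and was at 170.2, 207 and 209.9 CPM in vehicle and at 209, 214 and 218 CPM in panobinostat. The panobinostat libraries were tightly grouped and only vehicle library 1 lay well below them; the log2 fold change was 0.13 with all libraries and 0.02 without that one. Nop56, a core scaffold protein, was at 288, 346 and 342 CPM in vehicle and at 301, 377 and 363 CPM in panobinostat, where in each group library 1 was the lowest. Its partner Nop58 had a log2 fold change of 0.05. Rrp9, which encodes the protein that binds the U3 snoRNA, was at 56.8, 72.3 and 59.5 CPM in vehicle and at 67.5, 71.9 and 71.0 CPM in panobinostat, and had the smallest p of the group (log2 fold change 0.16, edgeR adjusted p = 0.998).

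The 3 box H/ACA genes had a median log2 fold change of 0.09, against -0.04 without vehicle library 1 and 0.01 without both libraries numbered 1. Dkc1 encodes dyskerin, the pseudouridine synthase that is also part of telomerase, and was at 125, 170.2 and 189 CPM in vehicle and at 151, 179 and 174 CPM in panobinostat. The lowest and the highest of the 6 values of Dkc1 were both vehicle libraries. Nhp2, a small core protein, was at 73.3, 77.9 and 69.4 CPM in vehicle and at 62.2, 94.8 and 94.0 CPM in panobinostat. Panobinostat library 1 was thus the lowest of all for Nhp2 and the other panobinostat libraries were the highest. Its log2 fold change was 0.19 (SE 0.18, edgeR adjusted p = 0.998), and 0.35 without both libraries numbered 1 (edgeR adjusted p = 0.0497). The latter fit leaves out that lowest value. Gar1, which encodes another core protein, was at 47.3 ± 6.91 CPM in vehicle and 50.3 ± 3.46 CPM in panobinostat (SD, n = 3).

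Of the 8 small subunit factors 7 were higher in panobinostat, with a median of 0.12, which was 0.06 without vehicle library 1 and 0.11 without both libraries numbered 1. Tsr1, a factor that resembles a translational GTPase and occupies the nascent small subunit late in its assembly, was at 63.6, 66.4 and 71.2 CPM in vehicle and at 72.1, 81.6 and 73.0 CPM in panobinostat. The groups of Tsr1 did not overlap, though the highest vehicle and the lowest panobinostat value were close, and its log2 fold change was 0.17 (SE 0.10, edgeR adjusted p = 0.998). Rrp12, which encodes a factor of pre-ribosome maturation and export, had the smallest p of the group, at 69.8, 72.0 and 85.1 CPM in vehicle and at 81.4, 92.7 and 91.3 CPM in panobinostat (log2 fold change 0.23, edgeR adjusted p = 0.998). Vehicle library 3 of Rrp12 lay above panobinostat library 1. Wdr43, a part of the machinery that assembles on the early precursor, was at 128, 157 and 153 CPM in vehicle and at 164, 165 and 154 CPM in panobinostat. Heatr1 and Utp20, which encode large scaffold proteins of the same machinery, had log2 fold changes of 0.10 and 0.15, and Bysl 0.11, which was 0.015 without panobinostat library 2. Nop14 and the endonuclease gene Nob1, whose product makes the last cut of the small subunit RNA, had 0.00 and -0.01.

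Large subunit factors gave 9 of 11 higher members, a median of 0.14, and 4 of the 7 genes with groups that did not overlap. The median was 0.11 without vehicle library 1 and 0.16 without both libraries numbered 1. Wdr12 (Entrez gene 57750, chr1:60071361-60098500, minus strand) encodes a member of the PeBoW complex, which the products of Pes1 and Bop1 complete and which is needed to mature the large subunit. Wdr12 was at 61.4, 60.9 and 62.7 CPM in vehicle and at 69.7, 77.0 and 74.1 CPM in panobinostat. The 3 vehicle values lay within a narrow band and all panobinostat values lay above it, at 61.7 ± 0.945 against 73.6 ± 3.66 CPM (SD, n = 3). The log2 fold change of Wdr12 was 0.25 (SE 0.09, 95% interval 0.05 to 0.46), with an edgeR adjusted p of 0.998, and 0.22 to 0.29 when each library was left out in turn. This member therefore had the same direction and a similar size in every such fit but did not pass the test over all genes.

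The other PeBoW genes had smaller differences of the same direction. Bop1 was at 101, 109 and 106 CPM in vehicle and at 109, 124 and 123 CPM in panobinostat, with a log2 fold change of 0.17 (SE 0.10, edgeR adjusted p = 0.998). Pes1 was at 127, 129 and 134 CPM in vehicle and at 135, 149 and 147 CPM in panobinostat, with a log2 fold change of 0.14 (SE 0.09, edgeR adjusted p = 0.998). For both genes panobinostat library 1 lay just above the highest vehicle library. Nop16 was at 55.8, 60.7 and 54.4 CPM in vehicle and at 60.7, 73.1 and 69.0 CPM in panobinostat (log2 fold change 0.25, edgeR adjusted p = 0.998), with vehicle library 2 and panobinostat library 1 nearly equal.

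Gnl3 encodes nucleostemin, a GTP-binding protein of stem and tumour cell nucleoli, and was at 118, 174 and 174 CPM in vehicle and at 148, 168 and 151 CPM in panobinostat. The vehicle libraries enclosed all panobinostat values, the log2 fold change was 0.00 (SE 0.17), and it was -0.18 without vehicle library 1. Ppan, Nop2, Rrs1 and Rrp1b had log2 fold changes of 0.18, 0.14, 0.14 and 0.26 with groups that overlapped. Without panobinostat library 2, Nop2 was at 0.046 and Rrs1 at 0.030. Nop2 encodes an RNA cytosine methyltransferase and Rrs1 a factor that loads the 5S RNA particle. Wdr74 and Brix1 were lower, at -0.07 and -0.08, and both were higher without vehicle library 2.

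**Figure D3:**
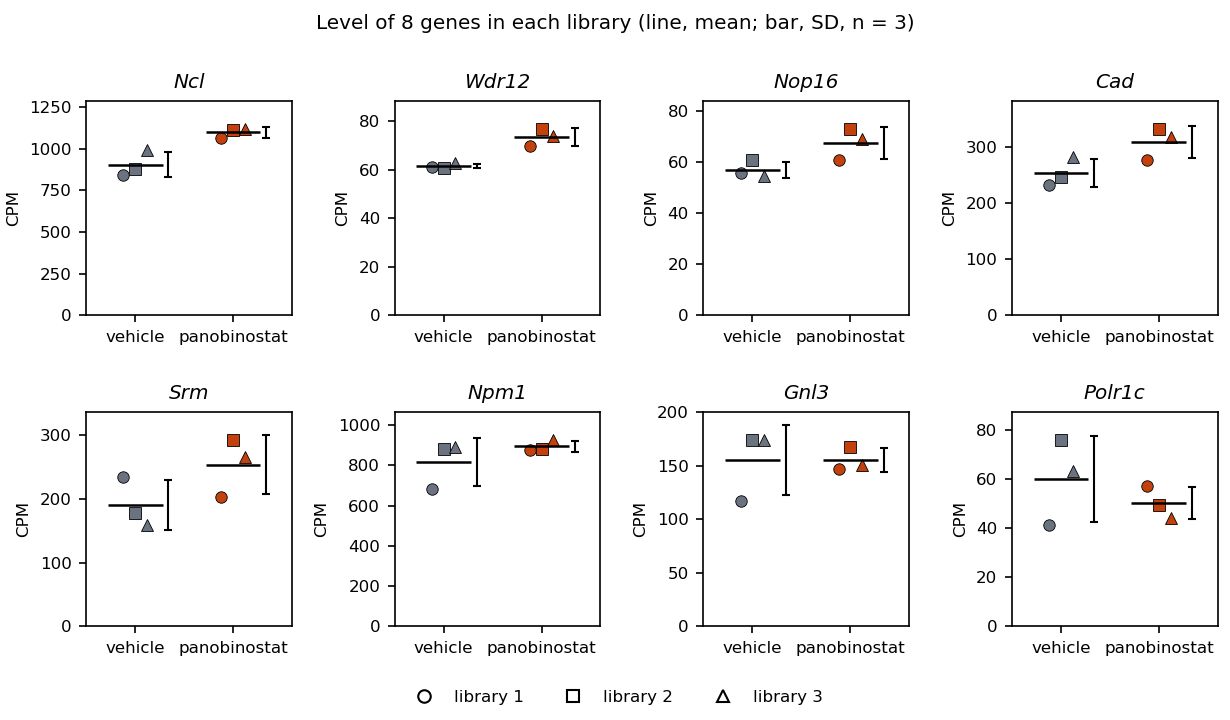
CPM of 8 of the genes in each library (grey, vehicle; orange, panobinostat; the shape gives the library number), with the group mean as a line and the SD as a bar (n = 3). The groups are apart for Ncl, Wdr12 and, by a small gap, Nop16, and vehicle library 1 is the lowest point for Npm1, Gnl3 and Polr1c.

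All 5 multifunctional nucleolar proteins were higher in panobinostat, with a median of 0.14 that was 0.06 without vehicle library 1 and 0.18 without both libraries numbered 1. Ncl (Entrez gene 17975, chr1:86344719-86359455, minus strand) encodes nucleolin, a chromatin and RNA binding protein that acts from transcription of the precursor to assembly. It was at 844, 879 and 989.7 CPM in vehicle and at 1062, 1115 and 1119 CPM in panobinostat. Each panobinostat library was higher than each vehicle library, at 904 ± 76.3 against 1098 ± 31.8 CPM (SD, n = 3). The log2 fold change of Ncl was 0.28 (SE 0.11, 95% interval 0.02 to 0.54), with an edgeR adjusted p of 0.998, and it was 0.22 to 0.35 when each library was left out.

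Mybbp1a, which encodes a nucleolar protein that represses RNA polymerase I and was found through its binding to MYB, was at 384, 371 and 408 CPM in vehicle and at 412, 484 and 483 CPM in panobinostat. Its groups did not overlap, with a small gap between vehicle library 3 and panobinostat library 1 (log2 fold change 0.25, edgeR adjusted p = 0.998). Npm1 encodes nucleophosmin, a histone and ribosome chaperone often mutated in human myeloid leukaemia. It was at 681, 879 and 890.4 CPM in vehicle and at 877, 880.2 and 927 CPM in panobinostat. The 5 libraries other than vehicle library 1 lay close together for Npm1, and the log2 fold change of 0.13 with all libraries was 0.00 without that one. Nolc1, a chaperone of snoRNPs, and the RNA helicase gene Ddx21 had log2 fold changes of 0.14 and 0.12, and Nolc1 was at 0.043 without panobinostat library 2.

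The 4 enzymes had the highest median of the role groups, 0.24, which was 0.22 without vehicle library 1 and 0.31 without both libraries numbered 1. Srm (Entrez gene 20810, chr4:148591513-148594619, plus strand) encodes spermidine synthase and had the largest fold change of the members. It was at 234, 178 and 159 CPM in vehicle and at 203, 293 and 267 CPM in panobinostat. Vehicle library 1 was above panobinostat library 1, while panobinostat libraries 2 and 3 were above all vehicle libraries. The levels were 191 ± 39.1 and 254 ± 46.4 CPM (SD, n = 3), a log2 fold change of 0.41 (SE 0.20, edgeR adjusted p = 0.998). It was 0.58 without vehicle library 1 (edgeR adjusted p = 0.151) and 0.72 without both libraries numbered 1 (edgeR adjusted p = 0.00758).

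Odc1 encodes ornithine decarboxylase, the first enzyme of polyamine synthesis, and was at 479, 445 and 434 CPM in vehicle and at 442, 558 and 556 CPM in panobinostat, a log2 fold change of 0.20 (edgeR adjusted p = 0.998). Panobinostat libraries 2 and 3 were again the highest of the 6. Without both libraries numbered 1 the log2 fold change of Odc1 was 0.33 (edgeR adjusted p = 0.0457). Cad, which encodes the protein that begins pyrimidine synthesis, was at 233, 247 and 283 CPM in vehicle and at 278, 333 and 319.5 CPM in panobinostat. Only vehicle library 3 and panobinostat library 1 of Cad overlapped, and its log2 fold change was 0.29 (SE 0.12, edgeR adjusted p = 0.998). Nme1, a nucleoside diphosphate kinase gene, had a log2 fold change of 0.03. Its counts are uncertain, since it overlaps the readthrough gene Gm20390 on the same strand and resembles its neighbour Nme2.

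**Figure D4:**
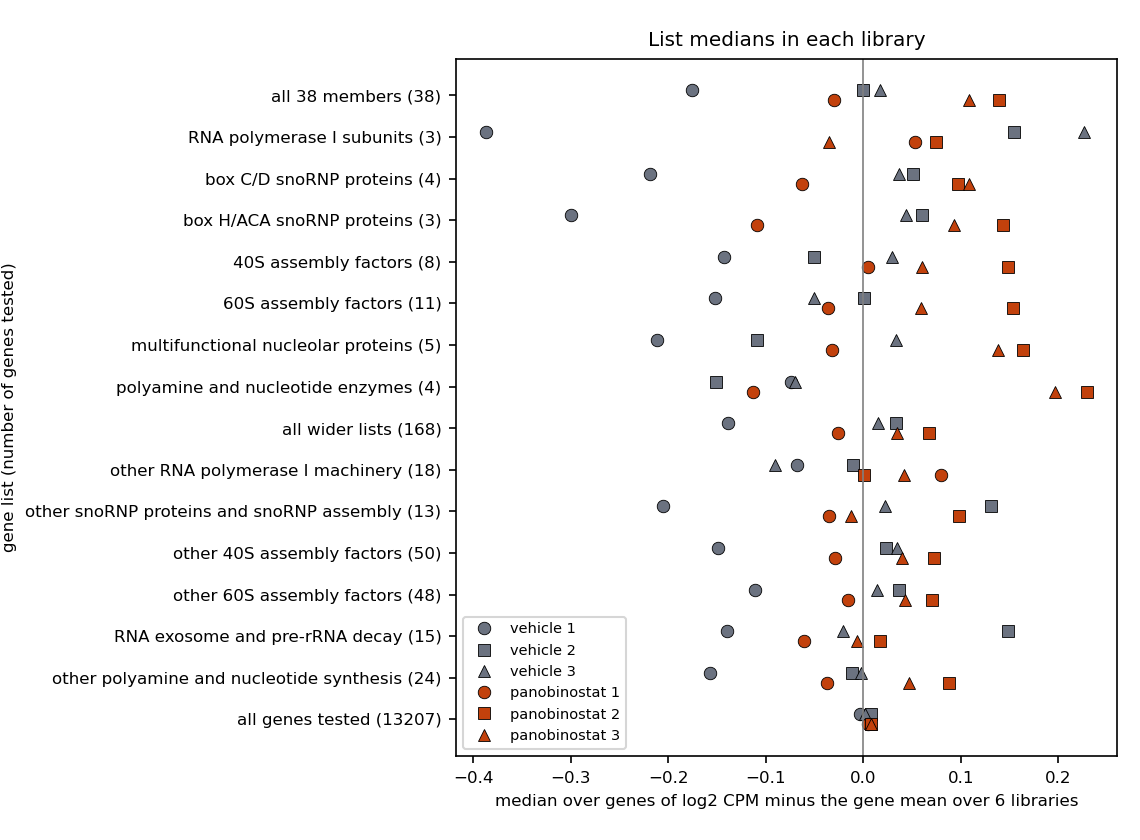
Median level in each of the 6 libraries, as log2 CPM minus the gene's own mean over the libraries. Rows are the 38 genes, their role groups, the wider lists and all genes tested (grey, vehicle; orange, panobinostat; the shape gives the library number). The enzymes are high in panobinostat libraries 2 and 3 (0.23 and 0.20). The RNA polymerase I subunits are low in vehicle library 1 (-0.39).

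Other genes of the same pathways, 168 tested genes in 6 lists, were also more often higher than lower with the drug, with a median nearer to 0. Of them 120 were higher and 48 lower with a median log2 fold change of 0.05, and edgeR called 0. An unadjusted p under 0.05 was found for 3, where 2.28% of all tested genes had one. In 21 of the 168 the panobinostat libraries all lay above the vehicle libraries, and in 1 all lay below. Of all tested genes 3.79% lay above in this way and 3.63% below. Without vehicle library 1, 81 were higher and 87 lower, with a median of -0.01. In that fit 1 gene was called higher, where 2% of 13369 genes were called higher and 0.419% lower. Without both libraries numbered 1, 90 were higher and 78 lower. There 4 were called in each direction, where 7.36% of 13239 genes were called higher and 4.65% lower. The medians of the 6 lists lay between 0.02 for the RNA exosome and pre-rRNA decay (9 of 15 higher) and 0.08 for other polyamine and nucleotide synthesis genes (20 of 24 higher). Other large subunit factors (35 of 48 higher), small subunit factors (35 of 50), RNA polymerase I machinery (13 of 18) and snoRNP proteins (8 of 13) had medians of 0.07, 0.05, 0.06 and 0.03. Without vehicle library 1 the lists differed in sign: the RNA polymerase I machinery was at 0.10 (13 of 18 higher), polyamine and nucleotide synthesis genes and large subunit factors at 0.02, small subunit factors at -0.03, exosome genes at -0.06 (4 of 15 higher) and snoRNP proteins at -0.07 (3 of 13). Without both libraries numbered 1 the list medians ran from -0.09 for the exosome to 0.07 for polyamine and nucleotide synthesis.

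**Figure D5:**
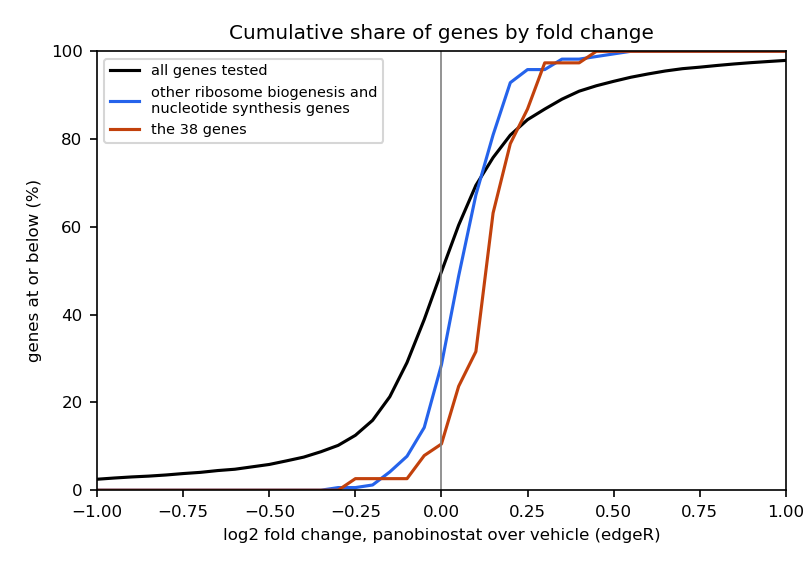
Cumulative share of genes by log2 fold change of panobinostat over vehicle, for the 38 members, the 168 genes of the wider lists and all 13207 tested genes. At a log2 fold change of 0.15 the members' curve is at 63.2%, below the wider lists (81.0%) and all genes (75.8%). It lies above that of all genes at 0.25 (86.8% against 84.4%) and at 0.30 (97.4% against 86.8%), since few members have larger changes.

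Within these lists the smallest p belonged to Cd3eap, the gene of the RNA polymerase I subunit now named Polr1g, at 26.9 ± 1.63 CPM in vehicle and 33.5 ± 2.16 CPM in panobinostat (SD, n = 3). Its groups did not overlap, and its log2 fold change was 0.32 (SE 0.11, edgeR adjusted p = 0.998). Impdh1, an enzyme gene of guanine nucleotide synthesis, had the largest fold change of the wider lists, at 30.5 ± 6.51 CPM in vehicle and 43.5 ± 7.29 CPM in panobinostat (log2 fold change 0.51, edgeR adjusted p = 0.998). Nme2 was at 65.6 ± 4.95 and 77.6 ± 1.18 CPM, a log2 fold change of 0.24 (edgeR adjusted p = 0.998), with the doubt on its counts given for Nme1. The other genes with the smallest p of their lists were Taf1d, Rpap3, Znhit6, Nol10, Imp4, Gtpbp4, Eif6, Exosc4 and Exosc5. Their log2 fold changes ran from 0.13 for Znhit6 to 0.35 for Nol10, and edgeR called 0 of these 9 genes. Of the RNA polymerase I factors, Ubtf binds the ribosomal DNA and Rrn3 helps to bring the polymerase to it. Their log2 fold changes were 0.08 and -0.05.

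Myc had a fold change of the other sign from that of most members, and did not pass the test. It was at 268, 231 and 259 CPM in vehicle and at 242, 245 and 201 CPM in panobinostat, a log2 fold change of -0.14 (SE 0.12, edgeR adjusted p = 0.998). Vehicle library 1, where the members were lowest, held the highest Myc value of the 6. Max was at 134 ± 6.04 CPM in vehicle and 153 ± 28.6 CPM in panobinostat (SD, n = 3), with panobinostat library 1 the highest at 186 CPM. Cdkn1a, a cell cycle inhibitor gene, was at 428, 60.3 and 56.9 CPM in vehicle and at 85.9, 238 and 324 CPM in panobinostat. Its highest value was in vehicle library 1, with a log2 fold change of 0.25 with all libraries and 1.87 without that one (edgeR adjusted p = 0.152). Without both libraries numbered 1 it was higher in panobinostat by 2.25 on the log2 scale (edgeR adjusted p = 0.0016).

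The members' spread between libraries was near that of genes of like level. The SD of log2 CPM over the 6 libraries had a median of 0.16 over members, against 0.23 over all tested genes and 0.17 over the 6452 tested genes with a mean log2 CPM of at least 5. Among role groups this median ran from 0.14 for small subunit factors to 0.22 for box H/ACA proteins.

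Several members host small nucleolar RNA genes in their introns, and 24 such genes lie within the spans of 9 members in the GENCODE M21 annotation. Of these 11 have a row of their own in the count table, with 1 to 505 counts over the 6 libraries, from 1 count for Snord92 in Wdr43 to 505 for Snord57 in Nop56. Libraries of mRNA hold few such short RNAs, and these counts were not tested. For 11 members an exon overlaps a gene on the other strand, as for Nop56 and Idh3b, Dkc1 and Mpp1, Tsr1 and Srr, and Bysl and Ccnd3. The strand setting of the counting is not given in the sources used here, so counts of these members are uncertain where the overlap lies.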

How the data were processed

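Per the labels, RNA of 3 vehicle and 3 panobinostat samples was sequenced as TruSeq mRNA libraries from 1 ug of total RNA. The deposited values are the authors' whole-number counts per Entrez gene, with no normalization. Per the submitters' processing notes, cutadapt 2.1, HISAT2 2.1.0, featureCounts and Subread 2.0.0 were used with build mm10. Their options, and whether counting used strand, are not given here by any source. Of 27179 identifiers, 25275 matched a RefSeq symbol (GRCm38.p6, the same assembly). Column names give group and a number that is not tied to the labels' replicate numbers, so libraries are named by group and column number.

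Counts were tested in edgeR 4.0.16 (R 4.3.3; filterByExpr minimum count 10, TMM, robust quasi-likelihood F-test, two-sided), panobinostat against vehicle, over 13207 genes, with Benjamini-Hochberg adjustment and a threshold of 0.05. CPM uses TMM-scaled library sizes, and log2 CPM a prior count of 2. The SE is the log2 fold change divided by the root of F. The test was also run on simulated data, and since that outcome is not given here, no result relies on it.

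Members and lists were chosen with earlier results of these data known. All 38 members are described; those with the smallest p, the highest mean level or groups that do not overlap are given in full for each role, with 6 genes by name and the 2 genes of smallest p of each wider list. Alternatives were DESeq2 1.42.0, limma-voom (limma 3.58.1), RLE, upper-quartile and no scaling factors, a filter at a mean of 1 CPM or none, no robust option, a threshold of 0.01, a replicate block, each library left out and, chosen after seeing the data, both libraries numbered 1 left out.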

Additional observations from a re-analysis of the deposited data

How the results depend on the processing

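The median log2 fold change of the 38 genes was 0.14 in the main fit and stayed above 0 in all 16 alternative fits. It ran from 0.07 without vehicle library 1 to 0.19 without panobinostat library 1. Without vehicle library 1, 9 members also went from higher to lower. The median moved by less than the spread of 0.10 between libraries, but that spread was itself near the size of the median. The number of members called was 0 in all of these fits but the one without both libraries numbered 1, which called 4. Over all genes, DESeq2 called 9, leaving out 1 library gave 0 to 324 calls, the most without vehicle library 1, and leaving out both libraries numbered 1 gave 1590. Of the 38 members, 26 kept their sign in every fit and 12 did not. The cause was not tested. With 1 library left out, log2 fold changes ran from -0.0037 to 0.27 for Polr1a, -0.13 to 0.13 for Polr1b, -0.00046 to 0.19 for Nop56, -0.047 to 0.14 for Nop58, -0.11 to 0.19 for Dkc1, -0.038 to 0.17 for Gar1, -0.068 to 0.094 for Nop14, -0.12 to 0.10 for Nob1, -0.18 to 0.026 for Wdr74, -0.18 to 0.093 for Gnl3, -0.18 to 0.027 for Brix1 and -0.049 to 0.15 for Nme1. Without both libraries numbered 1, Polr1b was at -0.14, Dkc1 at -0.033 and Gnl3 at -0.14. Nop14 and Gnl3, both near 0, were at -0.0017 and -0.0031 with RLE factors, -0.014 and -0.018 by library size alone, -0.0034 and -0.0040 with a mean of at least 1 CPM, and -0.0018 and -0.0032 in DESeq2; Nop14 was at -0.0033 in limma-voom.

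Deviations of same-numbered libraries from their group means had correlations of -0.14, 0.07 and -0.20 over genes. Those of libraries with unlike numbers ran from -0.18 to 0.23. With 3 libraries a group, these values cannot exclude pairing. The numbers were not taken as pairs in the main fit. With the replicate block, 0 genes were called, the members' median was 0.14 and Nop14 was at -0.0030. With 3 libraries a group, SE were 0.09 to 0.24 on the log2 scale and the 95% intervals of 36 members included 0.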
